A study of Mus musculus with 8 samples.

Results

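In mouse brown adipose tissue, 111 genes lay low in the same 2 arrays in which Angptl8, a feeding-induced secreted inhibitor of lipoprotein lipase activity, lay low. These 2 arrays were wild-type (WT) replicate 2 and the array labelled Abhd15 KO replicate 1, called the low pair below. A gene was a member if both arrays lay below all 6 others and their mean was at least 0.8 log2 under the mean of the 6. The probe set had to carry 1 gene symbol, to be the gene's brightest, and to have a mean of at least 4 log2 over the 8 arrays. The 111 members were 1.15% of the 9631 genes with such a mean. Angptl8, Mid1ip1, Hk2, Ppp1r3c, the Nr4a receptors and the clock genes of the Per, Cry, Nr1d and Dbp families were left out by name, and 5 of them met the limits, making 116 genes (1.2%) before they were left out (Angptl8, Mid1ip1, Hk2, Ppp1r3c and Nr4a2). The same limits turned upward were met by 82 genes (0.851%). The members were thus selected on their levels in these same 8 arrays, so every value of the low pair against the 6 others is a description without a test.

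The samples were brown fat from 8 male C57BL/6J mice, 1 mouse per array, measured on Affymetrix Mouse Gene 2.0 ST arrays from 200 ng of total RNA. The labels put 3 mice in the WT group and 5 in the group lacking Abhd15 (Abhd15 KO), and both groups were on normal chow. All mice were fasted overnight and given food again for 1 h, and the age is given as 14 weeks, or as up to 14 weeks on chow. Which part of Abhd15 was deleted, and litter, cage and harvest order, are not stated in the sources used here. Values are log2 signals per probe set, so a difference of 1 is a factor of 2. A level cannot be set against the level of another gene's probe set.

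The Abhd15 probe set did not separate the groups. It stood at 6.01 ± 0.19 (SD, n = 3) in the WT arrays and at 6.12 ± 0.27 (SD, n = 5) in those labelled Abhd15 KO. Whether it reads a deleted part is not known, so the label is used here as a name. The tissue label held: Ucp1, the uncoupling protein of brown fat, stood between 12.51 and 12.89 and Adipoq, the adiponectin gene, between 8.70 and 8.997 in the 8 arrays. In whole tissue, fewer cells of a type and less RNA per cell cannot be told apart.

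Feeding after a fast raises insulin, which promotes glucose uptake and the synthesis of fat and glycogen in adipocytes and curbs their lipolysis. BHLHE40 and BHLHE41 (DEC1 and DEC2) are basic helix-loop-helix repressors that bind E-boxes with the core CACGTG and act in the circadian clock and in metabolism. KIT is the receptor tyrosine kinase for stem cell factor, best known from mast cells, melanocytes and blood stem cells. SLC7A8 (LAT2) exchanges neutral amino acids across the cell membrane.

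The difference between the low pair and the 6 others ranged over the members from -2.98 to -0.80 log2 with a median of -1.06, or 2.09-fold lower. It was at least 2-fold in 66 members and at least 4-fold in 8. Just inside the limit were Grap, Ebf3 and 2610008E11Rik at -0.81, -0.80 and -0.80, and just outside were Slc7a2, Ncdn and E030024N20Rik at -0.79, -0.79 and -0.78. The gap between the higher array of the low pair and the lowest of the 6 others had a median of 0.52 and was over 1 in 14 members. It was 0.005 in Gnpnat1, the smallest, and 2.59 in Bhlhe41, the largest. Member levels had a median of 6.18, against 6.27 over the 9631 genes. Only E2f2 lay below the limit for dim probe sets, 2.88, in an array of the low pair, and there in 1 of the 2.

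**Figure D1:**
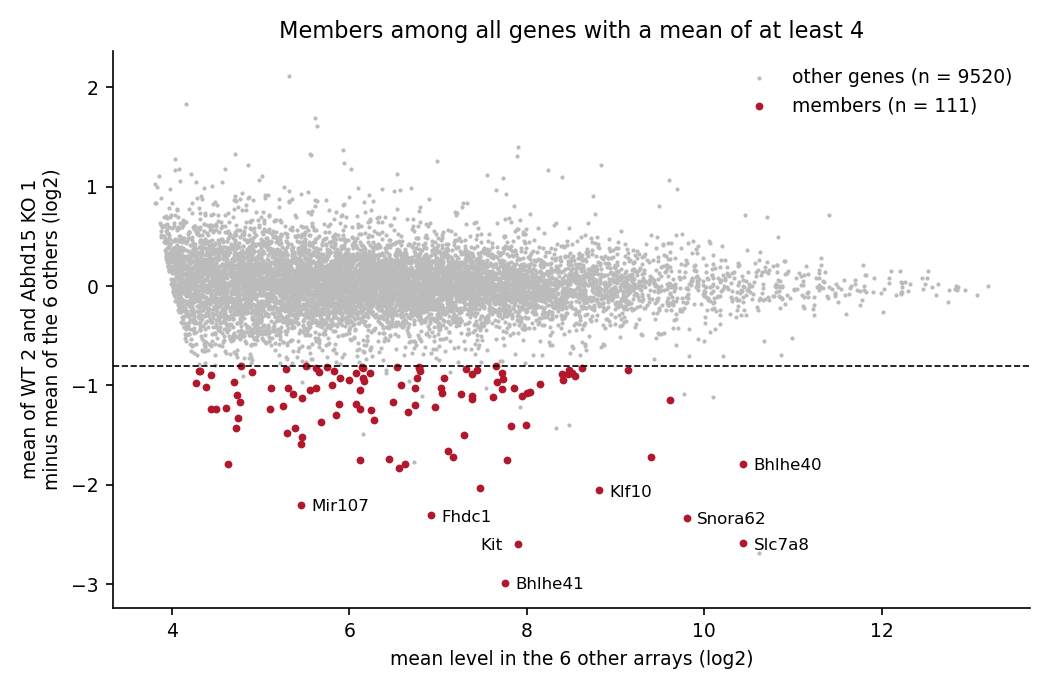
Each point is a gene with a mean of at least 4 log2. The x axis is the mean level in the 6 other arrays (log2) and the y axis the mean of the low pair minus the mean of the 6 others (log2). Red points are the 111 members, all at or under the dashed line at -0.8, and the gray points under that line are genes that were left out by name or that overlapped in single arrays.

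Transcription and chromatin genes made up 23 members, with a median difference of -1.03. Bhlhe41 had the largest difference of all 111: its levels were 7.54, 4.68 and 8.07 in WT (replicates 1, 2 and 3) and 4.85, 8.05, 7.58, 7.44 and 7.82 in labelled Abhd15 KO (replicates 1 to 5), a level 7.91-fold lower in the low pair. The lowest of the 6 others was thus over 2.5 log2 above both arrays of the low pair. Bhlhe40 stood at 10.73, 8.93 and 10.30 in WT and at 8.38, 10.52, 10.58, 10.09 and 10.43 in the labelled Abhd15 KO arrays, 3.45-fold lower in the low pair. Both closely related repressors thus lay low in the same mice. Klf10, a Krüppel-like factor induced by TGF-beta, stood at 8.88, 6.73 and 8.50 in WT and at 6.78, 8.92, 9.09, 8.64 and 8.86 in labelled Abhd15 KO, 4.16-fold lower. E2f2, a cell cycle factor, stood at 2.97 and 2.71 in the low pair (WT first, here and below) against 3.88 to 5.18 (median 4.68).

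The Bhlhe41 promoter holds the E-box hexamer that the BHLHE40 and BHLHE41 proteins bind, and so do those of Lfng, Arrdc4 and Irs1. They are shown so that the hexamer can be seen in its surroundings. Each line is the 250 bases before the annotated start in RefSeq (GRCm38.p6), 5′ to 3′ on the gene's strand, with the hexamer CACGTG in capitals. The regions are chr6:145865421-145865670 (minus), chr5:140607091-140607340 (plus), chr7:68749239-68749488 (minus) and chr1:82291440-82291689 (minus).
Bhlhe41: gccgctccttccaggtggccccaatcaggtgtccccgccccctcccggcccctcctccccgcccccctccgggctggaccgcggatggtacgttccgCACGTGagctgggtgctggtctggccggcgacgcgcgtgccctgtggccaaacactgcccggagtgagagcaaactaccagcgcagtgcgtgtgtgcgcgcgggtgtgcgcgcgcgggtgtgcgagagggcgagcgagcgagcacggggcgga
Lfng: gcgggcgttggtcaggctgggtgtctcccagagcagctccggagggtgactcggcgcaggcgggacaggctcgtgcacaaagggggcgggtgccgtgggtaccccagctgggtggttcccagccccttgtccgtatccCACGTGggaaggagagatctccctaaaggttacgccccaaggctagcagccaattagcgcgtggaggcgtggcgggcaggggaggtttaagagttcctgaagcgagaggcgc
Arrdc4: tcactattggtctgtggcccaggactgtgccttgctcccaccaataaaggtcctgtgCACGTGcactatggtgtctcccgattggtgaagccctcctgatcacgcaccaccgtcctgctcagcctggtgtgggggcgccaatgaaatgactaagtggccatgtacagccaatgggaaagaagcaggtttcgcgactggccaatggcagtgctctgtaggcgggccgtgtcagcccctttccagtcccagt
Irs1: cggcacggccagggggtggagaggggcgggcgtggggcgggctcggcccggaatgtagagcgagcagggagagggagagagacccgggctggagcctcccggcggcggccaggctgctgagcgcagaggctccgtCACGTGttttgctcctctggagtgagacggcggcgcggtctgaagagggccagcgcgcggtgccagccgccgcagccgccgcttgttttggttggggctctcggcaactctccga
The hexamer begins 153, 112, 193 and 115 bases before the start, in that order. CACGTG reads the same on both strands. It was found in 15 of 112 promoters (13.4%) of the 79 members with an entry, against 10.5% of 9758 promoters of genes with a mean of at least 4 and 7.15% of all 32851. The 14 genes were Arrdc4, Bhlhe41, Cbs, Fgf21, Foxred2, Gprin3, Gramd4, Ifi30, Irs1, Lfng, Rreb1, Slc29a1, Synm and Tbkbp1. Members without an entry, among them Bhlhe40, Klf10, Hes1 and Sik1, are not covered here or in the shares that follow. The cyclic AMP response element TGACGTCA was in 0 of the 112, against 3.14% of the 9758. The forkhead letters GTAAACA, read on both strands, were in 1 (Bahcc1; 0.893% against 2.51%). The sterol response letters TCACNCCAC, on both strands, were in 2 (Cyp2b10 and Tiparp; 1.79% against 1.12%). The CCAAT box was in 45.5% against 36.5%, and TATAAA in 9.82% against 7.14%, on both strands. Each window runs 250 bases before to 50 after the start, and a match is a string of letters, not a bound site.

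Other transcription regulators lay closer to the limit. Srebf1, the master regulator of fatty acid synthesis genes, stood at 6.85 and 6.84 in the low pair and at 7.18 to 8.11 (median 7.79) in the 6 others. Hes1, a Notch target and repressor, stood at 4.57 and 5.06 against 5.51 to 6.34 (median 5.67). Id2, which blocks basic helix-loop-helix factors by pairing with them, stood at 7.59 and 7.67 against 7.96 to 8.85 (median 8.56). These 3 genes belong to the helix-loop-helix family, as do Bhlhe40 and Bhlhe41. Nfe2l2 (NRF2), the regulator of antioxidant genes, had a difference of -0.85. Tead1, the DNA-binding partner of YAP, was at -1.10, Meis1, a homeobox cofactor, at -1.05 and the homeobox gene Hoxa2 at -1.59. Ebf3 was at -0.80 and Perm1, a regulator of mitochondrial genes in muscle, at -0.81. The rest of the group ran from -1.30 (Bahcc1) to -0.86 (Auts2) and held Polr2l, Gse1, H2ac21, Gtf2ird1, Zfp189, Rreb1, Hexim1 and Dmrt2.

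Receptors, ligands and extracellular signals made up 12 members (median -1.06). Kit stood at 7.70, 5.32 and 7.97 in the WT arrays and at 5.31, 8.16, 8.11, 7.46 and 8.02 in the labelled Abhd15 KO arrays, 6.02-fold lower in the low pair. The arrays of the low pair differed by about 0.01 from each other, and the 6 others stood over 2 log2 above them. Lfng, a glycosyltransferase that tunes Notch receptors, stood at 7.82, 5.42 and 7.30 in WT and at 5.46, 7.75, 7.69, 6.79 and 7.49 in the labelled Abhd15 KO arrays, 4.1-fold lower. Ffar4 (GPR120), a receptor for long-chain fatty acids in fat, stood at 5.23 and 5.65 against 6.54 to 7.48 (median 7.21). Fgf21, a hormone made by liver and brown fat, lay near the floor of the selection, at 3.29 and 3.31 against 3.73 to 4.86 (median 4.27). Agt, the precursor of angiotensin, stood at 3.47 and 3.27 against 3.62 to 4.98 (median 4.35). F3, tissue factor, which starts coagulation, stood at 7.45 and 7.57 against 8.19 to 8.58 (median 8.41). Also in the group were Gprin3 (-1.37), Gpr171 (-1.33), Lingo4 (-1.10), the GDNF receptor subunit Gfra1 (-1.02), the G protein regulator Rgs16 (-1.02) and the neuropeptide gene Nmb (-0.92).

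Markers of mast cells and melanocytes, the classic Kit-bearing cells, were mostly dim on these arrays. Of 11 mast cell genes on the array, 2 had a mean of at least 4 (Cpa3 and Gata2). Neither had both arrays of the low pair below the 6 others, and Cpa3 stood at 4.46 and 4.70 in the low pair with a mean of 4.42 over the 8 arrays. The mast cell proteases Mcpt4, Tpsb2 and Cma1 had means of 2.18, 2.61 and 2.62. Hdc, which makes histamine, had a mean of 3.56 and lay 0.60 higher in the low pair, above all 6 others. Mitf, the melanocyte factor that other cells also express, had a mean of 5.06 and differed by 0.15. The list mean was 2.65 and 2.70 in the low pair and 2.43 to 2.74 in the 6 others, under the dim limit of 2.88. For 7 melanocyte genes it was 2.76 and 2.81 against 2.69 to 3.02.

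Transport and metabolism accounted for 20 members (median -1.11). Slc7a8 stood at 10.98, 7.20 and 9.91 in WT and at 8.50, 9.92, 10.03, 10.86 and 10.93 in the labelled Abhd15 KO arrays, 6.02-fold lower in the low pair. Here the low pair was split: WT replicate 2 lay 1.30 below labelled Abhd15 KO replicate 1. Cyp2b10, a xenobiotic-metabolizing cytochrome P450, was split in the same way, with 6.97 and 8.39 against 9.12 to 9.70 (median 9.37). Asl, which makes arginine in the urea cycle pathway, stood at 5.82 and 6.24 against 7.03 to 8.60 (median 7.79). Ckb, the brain-type creatine kinase, also used in brown fat, stood at 6.34 and 6.85 against 7.33 to 8.56 (median 7.93). Cbs, the first enzyme of transsulfuration, stood at 3.71 and 4.02 against 4.73 to 5.45 (median 5.06). The 3 genes differed within the 6 others by over 0.7 log2 from lowest to highest.

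Ppp1r3b, which brings protein phosphatase 1 to glycogen, stood at 8.44 and 8.50 in the low pair and at 9.36 to 9.91 in the 6 others (median 9.57). Its second probe set gave -1.43, with both arrays of the low pair again below the 6 others. Egln3, a prolyl hydroxylase that marks hypoxia-inducible factor, stood at 6.25 and 6.76 against 7.36 to 7.84 (median 7.64). Slc29a1, a nucleoside transporter, stood at 6.17 and 6.79 against 7.19 to 7.70 (median 7.25). Further members of this group were Pon1 (-1.50), Slc35g1 (-1.27), Foxred2 (-1.24), Ifi30, a lysosomal thiol reductase (-1.11), Tiparp (-1.07), Hpd (-1.05) and Inmt (-1.02). Chac1, which breaks down glutathione, was at -0.97, and its level of 6.18 in WT replicate 1 stood over 1 log2 above all other arrays. The group closed with Rsad1, the sulfotransferase Sult1a1, Cyp2d22 and Gnpnat1, between -0.90 and -0.82.

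Intracellular signalling genes made up 16 members (median -0.97). Sbk1, a protein kinase, stood at 4.70 and 4.97 in the low pair against 6.29 to 6.96 (median 6.63). Arrdc4, an alpha-arrestin whose gene responds to glucose in other cells, stood at 5.54 and 5.38 against 6.68 to 7.38 (median 7.18). Irs1, an adaptor of the insulin receptor, stood at 6.61 and 6.38 against 7.24 to 7.62 (median 7.38), with its second probe set at -0.70 but overlapping in single arrays. Sik1, a salt-inducible kinase that answers to cyclic AMP, stood at 6.71 and 6.96 against 7.46 to 8.18 (median 7.93). Dusp4 and Dusp7, phosphatases of MAP kinases, were at -0.99 and -1.20. Ier3 and Ier5, immediate early genes, were at -1.35 and -0.86. Phlda3, an AKT inhibitor, was at -0.88, and Dixdc1, a Wnt pathway protein, at -1.43. The others were Sh3bp4, Cables1, Tbkbp1, Bcar1, Lzts2 and Grap, between -1.19 and -0.81.

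Cytoskeleton and trafficking genes made up 13 members (median -1.06). Fhdc1, a formin, stood at 7.28, 4.50 and 6.97 in WT and at 4.74, 6.46, 6.77, 6.78 and 7.29 in the labelled Abhd15 KO arrays, 4.95-fold lower in the low pair. Smtnl2, a smoothelin-like protein, stood at 4.97 and 4.48 against 5.79 to 7.80 (median 6.30). Hyls1, a centriole protein, was at -1.75, Ripor2 at -1.74 and Shroom1, an actin-binding protein, at -1.43. Vamp1, a vesicle fusion protein, was at -1.19, Dennd4a, which activates Rab proteins, at -1.06, and Synm, an intermediate filament protein, at -0.996. Gramd4, Ttl, Wdr44, Ttc25 and Mreg lay between -0.95 and -0.81.

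The 14 remaining protein-coding members had the mildest median, -0.90. They were led by 6430571L13Rik (-1.52), Kctd6 (-1.22), Proser2 and Klhdc7a (both -1.17), Rps23 (-1.09) and Kbtbd11 (-1.03). Rps23, a ribosomal protein gene, stood at 4.57 and 4.00 against 4.98 to 5.69 (median 5.38). Ribosomal protein genes have near-identical pseudogenes, so what this probe set reads is uncertain. Ypel2, Tent5a, Rnf144b, Fam228b, Ube2v2, Tmem268, Ankrd9 and 2610008E11Rik lay between -0.93 and -0.80.

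**Figure D2:**
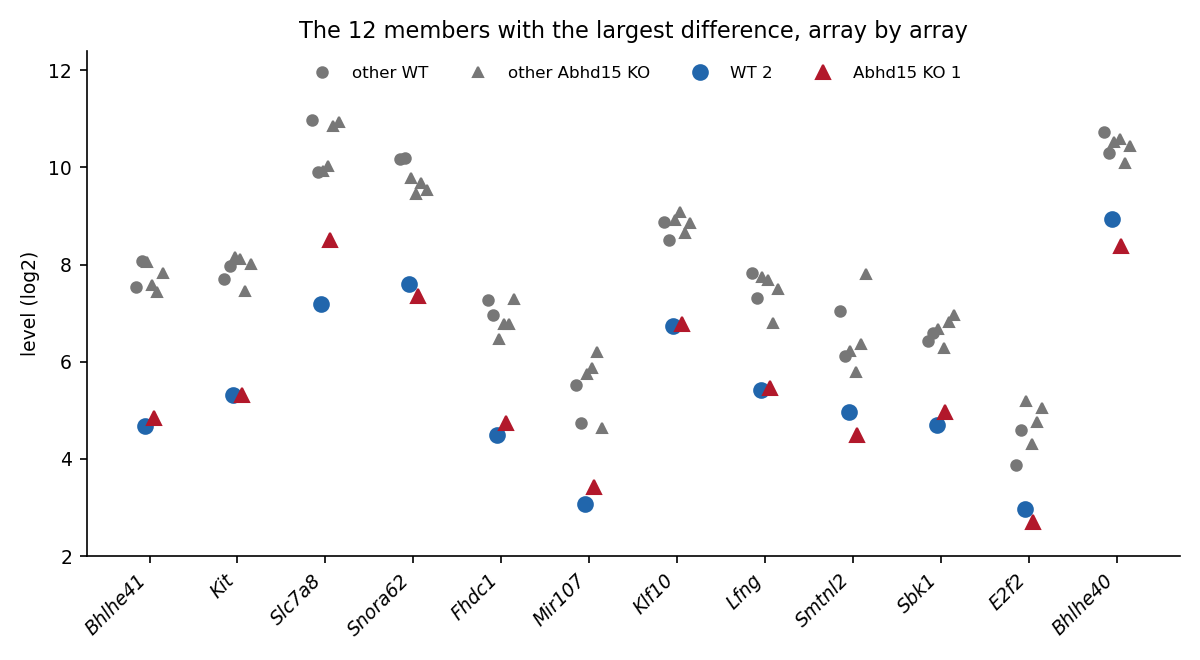
The y axis is the log2 level of the 12 members with the largest difference. Each symbol is 1 array: circles are WT and triangles labelled Abhd15 KO, gray for the 6 others, blue for WT replicate 2 and red for labelled Abhd15 KO replicate 1. In each gene both colored symbols lie under every gray one, and in Slc7a8 they lie 1.30 apart.

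Small noncoding RNAs were 12 of the 13 noncoding members. Of 54 microRNA genes with a mean of at least 4, 6 were members (11.1%), and of 63 small nucleolar RNA genes also 6 (9.52%), against 98 of 9199 protein-coding genes (1.07%). Turned upward, the same limits were met by 1 microRNA gene (1.85%) and 0 small nucleolar RNA genes. A fixed limit of 0.8 log2 is met more easily by probe sets that vary more between arrays. Among the 6 others, the SD of the 12 small RNAs ran from 0.17 (Snora30) to 0.63 (Mir701). The median SD was 0.18 over all genes and 0.28 over the members. The part of this spread in the shares was not tested. Small nucleolar RNAs guide the chemical modification of ribosomal RNA, and Snora genes belong to the box H/ACA kind, which guides pseudouridylation. The array labels RNA made from total RNA, and which stretch of each small RNA locus the probes read is not stated in the sources used here. The level may therefore be that of a precursor rather than of the mature RNA.

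Mature sequences of 3 of the microRNA members are shown for their seeds, bases 2 to 8, in capitals, which pair with target transcripts. They are from RefSeq (GRCm38.p6), at chr19:34820700-34820722 (minus), chr14:61632075-61632096 (minus) and chr7:96249450-96249472 (plus), printed 5′ to 3′.
mmu-miR-107-3p: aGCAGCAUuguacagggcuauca
mmu-miR-15a-5p: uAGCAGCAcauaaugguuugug
mmu-miR-708-5p: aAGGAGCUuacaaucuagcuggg
The 12 mature arms of the 6 microRNA members had 12 different seeds, and the first 2 shown share 6 of the letters, GCAGCA, offset by 1 base.

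Mir107 stood at 5.52, 3.07 and 4.75 in the WT arrays and at 3.43, 5.74, 5.87, 6.19 and 4.64 in the labelled Abhd15 KO arrays, 4.61-fold lower in the low pair. Its 6 other arrays spread over 1.5 log2, more than those of Kit or Bhlhe41. Snora62 stood at 10.17, 7.60 and 10.20 in WT and at 7.35, 9.79, 9.44, 9.68 and 9.54 in the labelled Abhd15 KO arrays, 5.04-fold lower. Mir708 was at -1.47, Mir701 at -1.22, Mir1933 at -1.12, Mir15a at -1.07 and Mir3058 at -0.92. Snora74a, Snora75, Snora30, Snora61 and Snora31 were at -1.41, -1.24, -1.09, -0.94 and -0.84. The last noncoding member was Lncbate10, a long noncoding RNA named from brown adipose tissue, at 5.80 and 6.69 against 6.81 to 7.77 (median 7.48).

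All 12 small RNAs lie inside a longer gene on the array, and the differences of those genes were smaller. The small RNAs were selected for a large difference and the containing genes were not, so smaller differences in the latter follow from the selection. Both arrays of the low pair lay below the 6 others in 3 of the 12 (Ncl, Dleu2 and Nudt4), against 8.96% of all genes. Rpsa, which contains Snora62, differed by -0.10 while Snora62 differed by -2.33. Pank1, which contains Mir107, differed by -0.19 against -2.20 for Mir107. Tenm4, which contains Mir708, went the other way and lay 0.82 higher in the low pair. It stood at 5.62 and 5.68 against 4.21 to 5.30 in the 6 others, without overlap, and so met the limits turned upward. Dleu2, the noncoding host of Mir15a, differed by -0.70 and Nudt4, around Mir3058, by -0.70. The difference was within 0.3 log2 of 0 in 9 of the 12 (the others being Tenm4, Dleu2 and Nudt4).

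**Figure D3:**
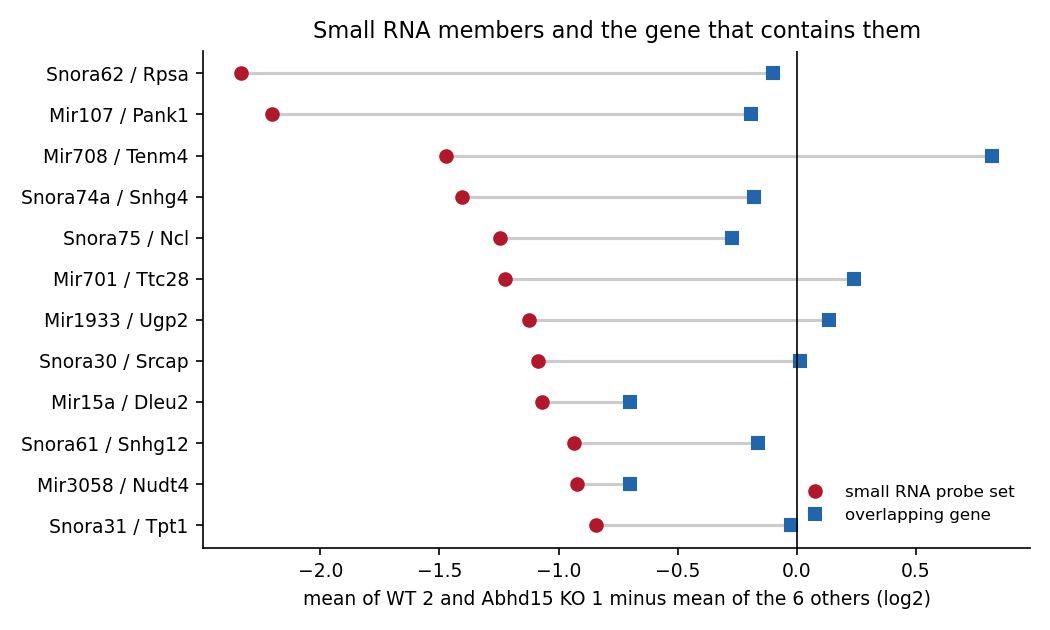
Each line pairs a small RNA member with the gene that contains it. The x axis is the mean of the low pair minus the mean of the 6 others (log2), a red circle for the small RNA and a blue square for the containing gene. The circles lie between -2.33 and -0.84, and 9 of the 12 squares lie within 0.3 of 0. The circles were selected to lie low, and the squares were not.

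The low pair was not one level of low. WT replicate 2 lay below labelled Abhd15 KO replicate 1 in 64 of the 111 members (57.7%), against 53.2% of the 9631 genes. The 2 arrays differed by a median of 0.25 in the members and 0.16 over all genes. Among the 6 others the members had a median SD of 0.28 log2, against 0.18 over all genes. Labelled Abhd15 KO replicate 5 was the highest of the 6 in 32 members (28.8%; 18.7% of all genes) and the lowest in 9 (8.11%; 13.02%). WT replicate 1 and labelled Abhd15 KO replicate 4 were each the lowest in 24 (21.6%), against 16.3% and 23.9% of all genes.

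A few other measurements on the same arrays bear on the members. Of 9 second probe sets of members, 3 had both arrays of the low pair below the 6 others, against 81 of 1341 second probe sets of all genes (6.04%). The 3 were those of Ppp1r3b, Gfra1 and Tiparp, and the last 2 were dim, with means of 2.11 and 2.65. In 8 of the 9 the difference was negative, with a median of -0.23, against 720 of the 1341 and a median of -0.02. The members were spread over the 19 autosomes and the X chromosome, with 12 each on chromosomes 7 and 11. Dusp4 and Ppp1r3b are neighbours on chromosome 8 with 1 protein-coding gene between them, and Cbs and Sik1 on chromosome 17 with 2.

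Genes of the pathways to which members belong lay on both sides. Members are counted in these lists and lie below by the selection, so a list's share below is not read as an excess. Over all 9631 genes, both arrays of the low pair lay below the 6 others in 863 (8.96%) and above them in 1046 (10.9%), and the median difference was 0.01. Of 27 insulin and feeding genes, 4 lay below (the members Srebf1, Ppp1r3b and Irs1, and also Pfkfb3) and 5 above, with a median of 0.01. Insig1, a brake on sterol synthesis, lay above at 1.07 and Rgs2 at 1.22. Fasn and Scd1, SREBP-1 targets in fat synthesis, lay slightly above, at 0.15 and 0.08.

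Of 28 fasting and FOXO genes, 4 lay below (Fgf21, Lpin1, Insr and Map1lc3b) and 7 above, with a median of 0.14. Angptl4, which inhibits lipoprotein lipase in the fasted state, lay above at 1.10, Foxo1 at 0.96 and Cpt1a, for fatty acid entry into mitochondria, at 0.86. Of 18 amino acid transporter genes, 3 lay below and 1 above (Slc1a1 at 0.98), with a median of -0.07. Slc7a8 was the only member among them, and Slc7a2 lay just outside the limit. Of 37 E-box family factors, 6 lay below and 2 above, with a median of -0.03. The 6 were the members Bhlhe40, Bhlhe41, Hes1, Id2 and Srebf1, and also Mlx, which is not a member. The 2 were Myc at 1.28 and Mycl at 0.997.

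Of 29 genes of Kit receptor signalling, 3 lay below and 3 above (median -0.12). Those below were Kit, Cbl and Spry4, and those above Cblb, Spry1 and Dusp6. Of 16 hypoxia targets, 4 lay below (Egln3, Vegfa, Ldha and Pfkfb3) and 3 above (median 0.01). Of 15 glucocorticoid targets, 1 lay below (Sult1a1) and 6 above (median 0.06), led by Errfi1 at 1.69 and Zbtb16 at 1.40. Of 19 immediate early genes, 3 lay below (Ier3, Ier5 and Nr4a2) and 7 above (median 0.29), led by Egr1 at 1.83.

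Macrophage and fibroblast markers lay higher in the low pair (counts are of genes with a mean of at least 4, list means of all list genes on the array). Of 13 macrophage genes, 0 lay below and 7 above, and the list mean was 5.62 and 5.46 in the low pair against 4.62 to 5.26 in the 6 others. Of 9 fibroblast genes, 0 lay below and 6 above, with a list mean of 7.39 and 7.32 against 6.57 to 7.03. Of 16 brown adipocyte genes, 3 lay below (Zic1, Pparg and Cebpa) and 0 above, with a list mean of 9.15 and 9.20 against 8.98 to 9.41. For 12 endothelial genes, 2 lay below, and the mean was 6.93 and 7.38 against 7.005 to 7.46. The 18 skeletal muscle genes had 0 on either side, with means of 6.84 and 6.18 inside a range of 4.52 to 7.95. The part of these cells in the members' levels was not tested.

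**Figure D4:**
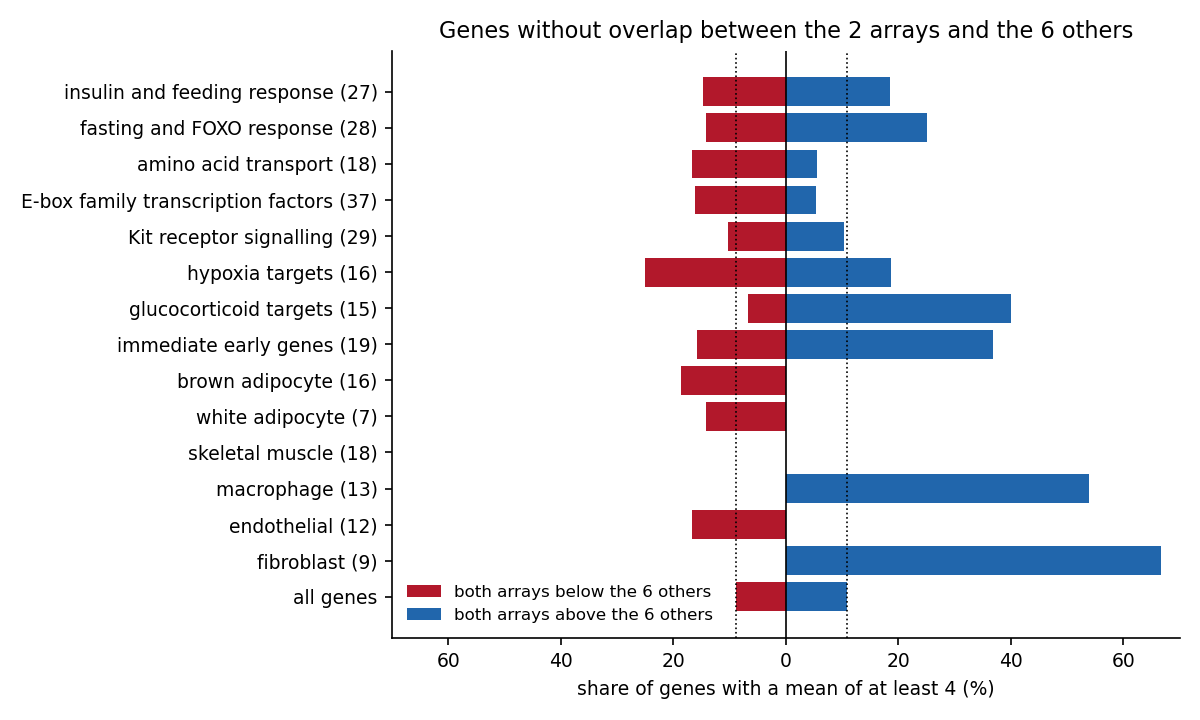
Bars give the share (%) of each list's genes with a mean of at least 4 for which both arrays of the low pair lay below (red, left) or above (blue, right) all 6 others, with the number of genes in brackets. Dotted lines mark the shares over all genes, 8.96% and 10.9%, and the macrophage and fibroblast bars reach furthest to the right. Members are counted in the red bars and lie below by the selection.

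Between the labelled genotypes, no member passed the test. With limma and Benjamini-Hochberg adjustment over 13223 tested genes, 0 genes were called (0%) in the 8 arrays, where no adjusted p was below 0.9997. Before adjustment 528 genes (3.99%) had a p under 0.05, of which 295 (2.23%) were higher and 233 (1.76%) lower in labelled Abhd15 KO, and 0 were members. The selection put 1 low array in each group for every member, which widens the spread within both groups, so nothing is read from this 0. The difference between labelled Abhd15 KO and WT had a median of 0.20 over the members, and was positive in 93 of 111. This too was built in by the selection, since the low pair fills 1 of 3 WT places and 1 of 5 labelled Abhd15 KO places. Without WT replicate 2 the median was -0.18, and without labelled Abhd15 KO replicate 1 it was 0.42. It was 0.41 without WT replicate 1 and 0.39 without WT replicate 3. The 95% confidence interval of a member's difference had a median half-width of 0.82 log2, wide for the same reason.

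Leaving out the low pair leaves 2 WT and 4 labelled Abhd15 KO arrays, which the selection holds above the pair but does not order by genotype. In these 6 arrays limma again called 0 of 13223 genes (0%), with no adjusted p below 0.9996. Before adjustment 531 (4.02%) had a p under 0.05, 254 (1.92%) of them higher and 277 (2.09%) lower. The members' median difference was 0.03, against 0.00325 over all tested genes, and 60 of 111 were positive (54.1%, against 50.7%). Leaving out WT replicate 3 or labelled Abhd15 KO replicate 5 turned the median's sign, to -0.00075 and -0.00933. The median half-width was 0.53 log2.

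Bhlhe41 differed between the labelled genotypes by 0.38 (95% confidence interval -1.61 to 2.37) in the 8 arrays and by -0.09 (-0.61 to 0.44) in the 6. For Bhlhe40 the difference was 0.01 (-1.23 to 1.26) in the 8 and -0.11 (-0.56 to 0.34) in the 6. For Kit it was 0.42 (-1.31 to 2.14) in the 8 and 0.10 (-0.42 to 0.62) in the 6. For Slc7a8 it was 0.68 (-1.15 to 2.52) in the 8 and -0.01 (-0.95 to 0.93) in the 6. The 2 arrays missing from the 6 were chosen for being lowest in these genes, so the narrower intervals there follow from the choice and set no bound on a genotype difference.

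Of the members, 4 had an unadjusted p under 0.05 in the 6 arrays, 1 higher and 3 lower, a share near the 4.02% of all tested genes, and all 4 had a limma adjusted p of 0.9996. For Snora62 the difference was -0.57 (-0.91 to -0.24), with values of 10.17 and 10.20 in WT and 9.44 to 9.79 in labelled Abhd15 KO. Agt was at -0.76 (-1.32 to -0.21) and Snora75 at -0.58 (-1.07 to -0.09), while Ifi30 was at 0.47 (0.12 to 0.82). In the 8 arrays the members with the lowest p were Snora30 at 0.62 (-0.15 to 1.38), Perm1 at 0.58 (-0.17 to 1.32) and Ifi30 at 0.56 (-0.16 to 1.29). None of these passed the adjustment.

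**Figure D5:**
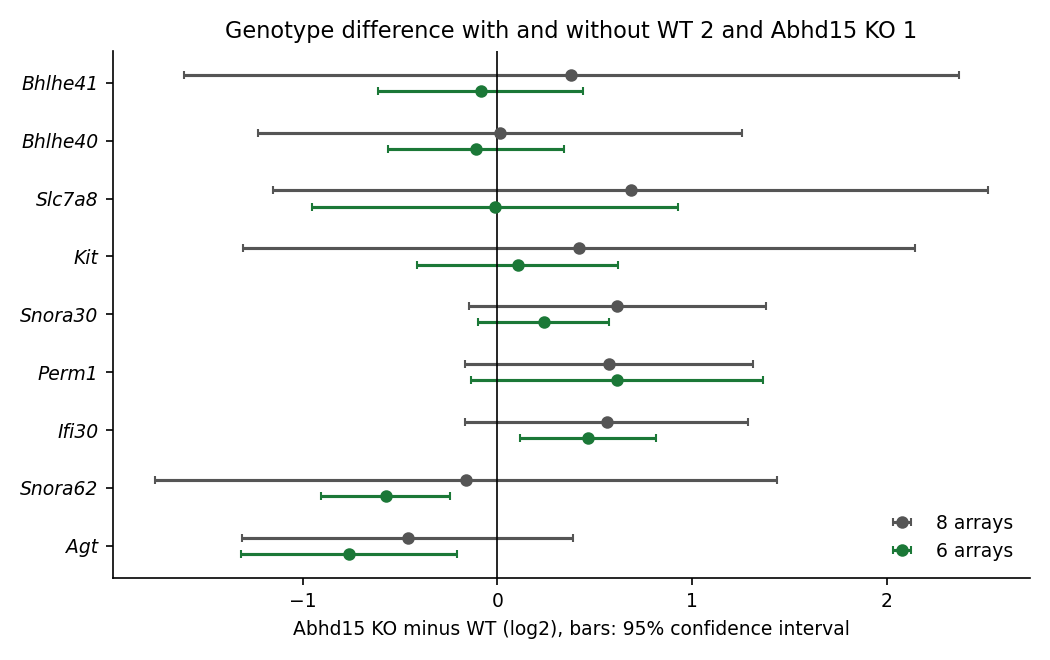
Points give the difference between labelled Abhd15 KO and WT (log2, x axis) of 9 members, with 95% confidence intervals as bars, in all 8 arrays (gray) and in the 6 without the low pair (green). In the 8 arrays all 9 intervals hold 0, and in the 6 those of Ifi30, Snora62 and Agt do not, before adjustment.

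Among the pathway lists, 0 genes were called in either fit. Of 30 tested insulin and feeding genes, 3 were higher at an unadjusted p under 0.05 in the 8 arrays (2.23% of all tested genes) and 2 in the 6 (1.92%). In the 8 arrays so were 2 of 25 amino acid transporter genes, 2 of 18 hypoxia targets and 1 of 18 glucocorticoid targets. There 0 genes of the 8 pathway lists were lower. In the 6 arrays 2 of 18 hypoxia targets, 2 of 18 glucocorticoid targets and 1 of 24 immediate early genes were higher. Lower there was 1 each of the E-box (40 tested), Kit (32) and glucocorticoid lists, against 2.09% of all tested genes. Slc2a1 is in both the insulin and the hypoxia list and is counted in each. Slc2a1, a basal glucose transporter, was at 0.58 (0.29 to 0.87) in the 8 arrays and Slc2a4, the insulin-responsive one, at 0.34 (0.10 to 0.58). The mean of 20 skeletal muscle markers differed widely between mice, with 7.95, 6.84 and 5.15 in WT and 6.18, 4.52, 5.85, 7.21 and 6.53 in labelled Abhd15 KO. The part of muscle in the members' genotype differences was not tested.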

How the data were processed

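Brown fat RNA from 8 mice was measured, 3 WT and 5 labelled Abhd15 KO. The authors deposited log2 values, 1 per probe set and array, made with RMA in oligo per the submitters' processing notes. The design text also names Expression Console, so the program is not settled, and versions and genome build are not given in the sources used here. RMA quantile-normalizes arrays, so a shift common to nearly all genes is not visible. Array medians lay between 3.00 and 3.04. Arrays give no read depth, and their number limits the precision.

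Of 41345 probe sets, 23521 had 1 symbol, 1814 several and 16010 none, by the platform annotation. The brightest stood for each of 22180 genes. All 111 members matched the RefSeq gene list (GRCm38.p6) by symbol. Genes above 2.88 log2, the 95th percentile of 1400 olfactory and vomeronasal receptor probe sets, in at least 3 arrays were tested (13223). Fits used limma 3.58.1 (lmFit and eBayes) in R 4.3.3 with a group term, in 8 arrays and in 6, with Benjamini-Hochberg adjustment and a threshold of 0.05. The fit was tested on simulated data.

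The members and lists were chosen with earlier results of these data known. The genes named with genotype differences are the 4 given with the selection rule (Bhlhe41, Bhlhe40, Slc7a8 and Kit) and the 3 members of lowest p in each fit. The array values by member are given in full for the 8 members at least 4-fold lower and for Bhlhe40, and Snora75 was added after its values were seen. Alternatives changed the limits, filter, normalization, fit and arrays.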

Additional observations from a re-analysis of the deposited data

Results flagged for a closer look

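Within the 5 arrays labelled Abhd15 KO, replicate 1 stood apart from the rest by Dixon's criterion (its gap to the next array over the group's range, critical value 0.710) in 6 of the 16 members looked at. The ratio was 0.808 for Bhlhe41, 0.755 for Kit, 0.859 for Snora62, 0.806 for Klf10, 0.777 for Bhlhe40 and 0.781 for Ifi30, each with replicate 1 lowest. Chance flags about 1 in 20 groups, but these members were selected for a low value in this array, so the number of flags follows from the selection and shows no excess.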

How the results depend on the processing

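A difference limit of 0.6 in place of 0.8 gave 187 members, among them all 111, and a limit of 1.0 gave 66, all among the 111. Other filters and normalizations gave 90 to 121, and leaving out 1 of the 6 other arrays gave 106 to 120. The labelled genotypes gave 0 called genes and 0 called members under every alternative run, in the 8 and in the 6 arrays. The number at an unadjusted p under 0.05 ran from 344 to 1019 in the 8 arrays and from 339 to 992 in the 6, least with a mean of at least 4 and most without the filter on dim genes, which change how many are tested.

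Replicate numbers were not used as pairs in the main fits. Deviations of same-numbered arrays correlated at -0.26, -0.10 and 0.02. Whether same-numbered mice shared a litter or harvest is not stated and was not tested. With the replicate block in the 8 arrays the members' median difference was 0.05, 0 genes were called and Bhlhe40 was at -0.16. An unadjusted p under 0.05 was then held by 0 members and by 422 of 13223 genes. With a term for the low pair it was held by 8 members (4 higher, 4 lower) and 627 genes. Without labelled Abhd15 KO replicate 1 it was held by 11 members, all higher, and 671 genes. That direction follows from the selection, since the only low array left is then in the WT group. The block could not be fitted in the 6 arrays. The members' median ranged from -0.18 to 0.42 in the 8 arrays and from -0.00933 to 0.058 in the 6 as 1 array was left out, and the term for the low pair gave 0.06.

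Directions turned, with no call at stake, in the 8 arrays for Bhlhe40 with median-centred arrays (-0.00133), array weights (-0.0385) and the pair term (-0.23), and for Bhlhe41 with the pair term (-0.0179). In the 6 arrays they turned for Slc7a8 with quantile normalization (0.00466) and array weights (0.017). With 1 array left out, the 8-array values ran from -0.66 to 1.03 for Bhlhe41, -0.51 to 0.42 for Bhlhe40, -0.40 to 1.49 for Slc7a8, -0.42 to 0.94 for Kit and -1.03 to 0.29 for Snora62. The 6-array values ran from -0.35 to 0.18 for Bhlhe41, -0.32 to 0.10 for Bhlhe40, -0.54 to 0.52 for Slc7a8 and -0.0345 to 0.26 for Kit. Where 1 array remained in a group, it was assumed to vary like the others. The cause of these turns was not tested.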

Other observations

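Of 4118 probe sets with no gene symbol and a mean of at least 4, 129 (3.13%) met the same limits as the members. Of 724 with several symbols 12 did (1.66%), several of them with the same symbols, 4933409K07Rik and Gm3893 or Snora17 and Snhg7. Among named genes the share was 1.2% before any were left out by name. That share counts only the brightest probe set of each gene, so the shares are not counted alike.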
